A study of Mus musculus with 15 samples.

Results

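The genes of prostaglandin synthesis, breakdown and reception were followed in ear RNA of wild type mice and of mice with a keratin 5-directed deletion of *Socs3*, a suppressor of cytokine signalling. The 10 genes were given by name, matched exactly to the symbols in the expression tables, and all 10 of them were found among 21110 genes. They are *Pla2g4a*, which releases arachidonic acid, the cyclooxygenases *Ptgs1* and *Ptgs2*, the terminal synthases *Ptges*, *Ptgds* and *Ptgis*, the degrading enzyme *Hpgd* and the prostaglandin E2 receptors *Ptger2*, *Ptger3* and *Ptger4*.

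Prostaglandins are short-lived lipid signals made where they act. A phospholipase A2 cuts arachidonic acid from membrane phospholipids, a cyclooxygenase turns it into prostaglandin H2, and a terminal synthase converts this into prostaglandin E2, prostaglandin D2 or prostacyclin. *Ptgs1* (COX-1) is made steadily in many cells, while *Ptgs2* (COX-2) is low at rest and is induced by cytokines, growth factors and injury. In skin, prostaglandin E2 takes part in inflammation, blood flow and the growth of the epidermis, and *Hpgd* (15-hydroxyprostaglandin dehydrogenase) ends its signal.

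RNA was taken from the ears of 15 C57BL/6 mice, 1 library for each mouse. The wild type gave 4 mice at 2 weeks after birth and 3 at 10 weeks, and *Socs3* cKO mice, in which deletion is directed to cells that express keratin 5, gave 4 at each age. The label keratinocytes stands beside the tissue label Ear, and the libraries held markers of many cell types. All 8 keratinocyte markers examined, *Krt5* and *Krt14* among them, had a mean FPKM of at least 1 in each group, but so did all 7 fibroblast markers. In such mixed RNA, fewer cells of a type and less RNA per cell cannot be told apart. Library numbers do not interleave between the 4 groups, and a batch, if there was one, and the condition cannot be told apart.

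Values were FPKM, fragments scaled to the length of the gene and to the total mapped reads, so levels of different genes can be set side by side. The number of reads behind each value is unknown. Differences between groups are log_2_(FC) on the scale of log_2_(FPKM + 0.1), tested with limma over genes that reached an FPKM of 1 in 3 or more of the mice compared. A differentially expressed gene (DEG) had a Benjamini-Hochberg adjusted p below 0.01 and at least a 2-fold difference, a |log_2_(FC)| of 1. The exact permutation test, also 2-sided, cannot give a p below 0.0286 for 4 mice against 4 or below 0.0571 for 3 against 4. Nothing in the labels says more of how the mice were related, and the p-values measure the spread between these samples.

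The targeted gene and 2 sets of libraries limit what can be read from the labels. Wild type mice of 2 weeks had 9.71 to 10.3 FPKM of *Socs3*, and *Socs3* cKO mice had 1.25, 9.32, 12.6 and 3.51. The log_2_(FC) at 2 weeks was -1.06 (SE 0.63, adjusted p = 0.18 by limma), and 2 of the 4 *Socs3* cKO mice were near the wild type. At 10 weeks the ranges were 2.02 to 4.81 and 29.8 to 47.7. The gene was higher, not lower, in the 10-week libraries labelled *Socs3* cKO (log_2_(FC) 3.54, SE 0.29, adjusted p = 7.2e-05 by limma), and *Socs3* cKO below stands for the libraries with that label. The wild type libraries of 10 weeks listed 1414 to 3176 genes at 0, against 4044 to 4423 in the other groups. *Socs3* cKO replicate 1 of 2 weeks had the lowest mean correlation with its own group, 0.947. The median log_2_(FC) of all genes tested was -0.21 at 2 weeks and 0.31 at 10 weeks, and member differences are also given relative to it below.

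The sequences shown first are the 250 bases before the annotated start of both cyclooxygenase genes and of *Ptges*, because *Ptgs2* and *Ptges* were the members called at 10 weeks and *Ptgs1* is the paralog beside them. They were read from the mm9 genome at the start of the longest coding transcript, each 5′ to 3′ on the strand of its gene, and for *Ptges* that start lies inside the annotated span of the gene. *Ptgs2* is at chr1:151947004-151947253 (plus strand), *Ptges* at chr2:30758818-30759067 (minus strand) and *Ptgs1* at chr2:36085696-36085945 (plus strand). Capitals mark matches to the motif letters described after them.
Ptgs2: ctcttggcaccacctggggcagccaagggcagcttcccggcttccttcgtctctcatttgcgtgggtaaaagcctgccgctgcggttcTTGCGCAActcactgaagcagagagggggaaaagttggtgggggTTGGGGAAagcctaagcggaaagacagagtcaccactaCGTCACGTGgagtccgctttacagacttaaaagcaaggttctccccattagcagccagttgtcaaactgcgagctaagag
Ptges: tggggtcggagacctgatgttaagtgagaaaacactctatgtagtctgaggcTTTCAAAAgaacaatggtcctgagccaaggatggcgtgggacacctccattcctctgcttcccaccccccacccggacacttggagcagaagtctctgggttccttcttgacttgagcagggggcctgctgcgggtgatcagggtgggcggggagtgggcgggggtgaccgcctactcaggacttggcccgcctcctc
Ptgs1: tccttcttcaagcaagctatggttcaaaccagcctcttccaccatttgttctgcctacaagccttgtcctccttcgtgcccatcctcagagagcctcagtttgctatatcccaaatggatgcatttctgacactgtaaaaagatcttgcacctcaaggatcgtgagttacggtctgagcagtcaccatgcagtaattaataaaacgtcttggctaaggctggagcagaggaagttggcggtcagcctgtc

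On both strands, 8 motifs were searched by their letters, and a match describes letters and not a bound site. The *Ptgs2* window held the E-box CACGTG at -77 to -72, which 7.06% of 19439 promoter windows of this length held. Overlapping it, the cyclic AMP response half-site CGTCA lay at -80 to -76 (20.9% of windows). The C/EBP letters TTNNGNAA matched in the *Ptgs2* window at -162 to -155 and at -118 to -111, and this loose motif was found in 33.6% of windows and in 6 of the 10 members. The *Ptges* window held 1 C/EBP match, on the other strand at -198 to -191, and the *Ptgs1* window held none of the 8 motifs. No member window held TATAAA (11.4% of windows), the full cyclic AMP element TGACGTCA (2.1%), the AP-1 letters TGANTCA (5.92%), the NF-kB letters GGNNTTTCC (4.9%) or the STAT letters TTCNNNGAA (6.64%).

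The first comparison asked how the pathway differed between the genotypes at each age. At 2 weeks *Pla2g4a* and *Hpgd*, the first and last enzymes of the pathway, were up-regulated DEGs in *Socs3* cKO. In the 10-week libraries labelled *Socs3* cKO, where *Socs3* itself was higher than in the wild type, the up-regulated DEGs were *Ptgs2* and *Ptges*, the inducible cyclooxygenase and a prostaglandin E synthase. These were 2 of 8 members tested at 2 weeks, where 14.4% of 13524 genes were called, and 2 of 9 at 10 weeks, where 14.9% of 13105 genes were called. *Ptgs2* was among the 9 only because of its level in *Socs3* cKO, so the 10-week count is not independent of that level. No member was called down-regulated by limma at either age, although 4 members at 2 weeks and 2 at 10 weeks had an adjusted p below 0.01 in either direction. The median log_2_(FC) of the tested members was 0.6 at 2 weeks, against -0.21 for all genes, and 0.41 at 10 weeks, against 0.31. The mice of the 2 genotypes did not overlap in 5 tested members at 2 weeks and in 5 at 10 weeks, where 56.1% and 42.3% of all genes did not overlap.

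**Figure D1:**
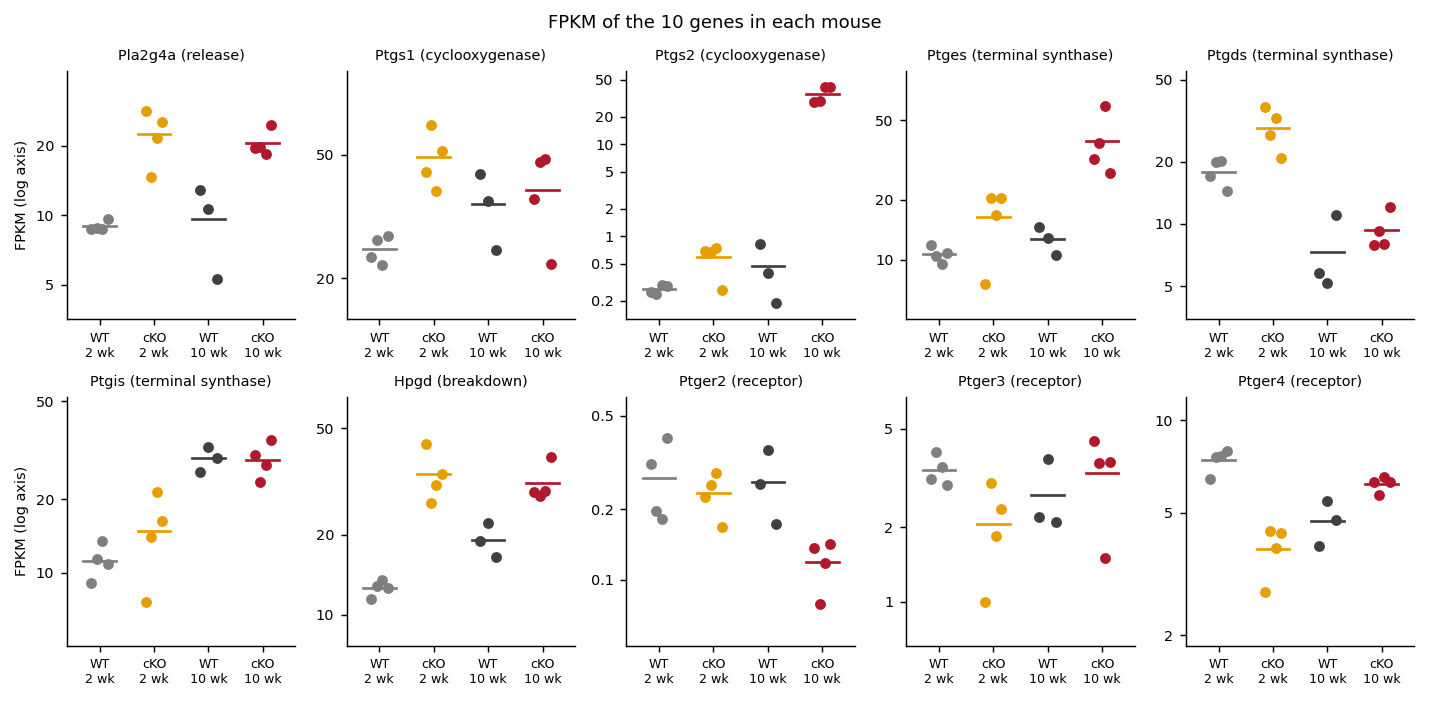
FPKM of each of the 10 genes in each mouse, on log axes with a range of their own in each panel. Points are mice, lines are group means, with 4 mice a group except 3 in the wild type at 10 weeks, and *Ptgs2* is at 28.7 to 42.1 FPKM in *Socs3* cKO at 10 weeks against at most 0.83 elsewhere.

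Ordered by level, *Ptgs1* led in the wild type at both ages and in *Socs3* cKO at 2 weeks, with a mean FPKM of 24.9, 34.6 and 49.0. In the 2-week wild type it was followed by *Ptgds* at 17.9 and *Hpgd* at 12.6, each with no overlap with the gene above it, while *Hpgd*, *Ptgis* (11.2), *Ptges* (10.7) and *Pla2g4a* (8.97) overlapped with their neighbours. In the 10-week wild type *Ptgis* came second at 29.3 and overlapped with *Ptgs1*. In *Socs3* cKO at 10 weeks *Ptges* (39.1), *Ptgs1* (38.5), *Ptgs2* (35.4), *Hpgd* (31.2) and *Ptgis* (28.9) formed a run in which neighbours overlapped. The receptors were lower, with *Ptger4* above *Ptger3* in each group mean and *Ptger2* at or under 0.272.

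*Pla2g4a* encodes cytosolic phospholipase A2, the enzyme that releases arachidonic acid on a calcium signal. In mm9 it spans 151676748 to 151808420 of chromosome 1, and its longest coding transcript has 18 exons. The wild type mice of 2 weeks had 8.72, 8.8, 8.71 and 9.64 FPKM and the *Socs3* cKO mice 28.3, 14.7, 21.6 and 25.3. The genotypes did not overlap, with means of 8.97 ± 0.45 and 22.5 ± 5.84 (SD, n = 4 each). *Pla2g4a* was up-regulated with a log_2_(FC) of 1.28 (SE 0.21, adjusted p = 0.0026 by limma), or 1.49 above the median of all genes. Values in the 10-week wild type were 12.9, 10.6 and 5.3 FPKM, those in *Socs3* cKO 19.5, 19.7, 18.4 and 24.7. The groups again did not overlap, but the adjusted p by limma was 0.0108 (log_2_(FC) 1.18, SE 0.28), just outside the threshold. The 2-week call ended when any 1 wild type mouse was left out (adjusted p 0.0102 to 0.0118 by limma) and when the trend with GC content and gene length was removed, where the log_2_(FC) was 0.85.

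Both cyclooxygenases were compared between the genotypes at each age. *Ptgs2* lies on chromosome 1 from 151947254 to 151955140 with 10 exons, and *Ptgs1* on chromosome 2 from 36085946 to 36107792 with 11 exons. The wild type mice of 2 weeks had 0.245, 0.237, 0.297 and 0.29 FPKM of *Ptgs2* and the *Socs3* cKO mice 0.697, 0.674, 0.739 and 0.262. These values are below 1 in each mouse, so the gene was not in the 2-week fit. Mouse 4 of *Socs3* cKO was level with the wild type while the other 3 were higher, and the exact permutation test gave p = 0.0857 for a difference of 0.84 on the log_2_ scale. Wild type mice of 10 weeks had 0.83, 0.394 and 0.187 FPKM of *Ptgs2*, while *Socs3* cKO mice had 28.7, 29.3, 41.5 and 42.1. The means were 0.471 ± 0.328 (SD, n = 3) and 35.4 ± 7.44 (SD, n = 4), with a wide gap between the groups. *Ptgs2* was up-regulated with a log_2_(FC) of 6.1 (SE 0.36, 95% confidence interval 5.29 to 6.91, adjusted p = 1.22e-05 by limma), which is 68.6-fold on the log_2_(FPKM + 0.1) scale. It passed the filter only through the *Socs3* cKO mice, as each wild type mouse was below 1 FPKM. The call held without any 1 mouse, at a log_2_(FC) of 5.69 to 6.53.

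*Ptgs1* had another pattern. The wild type mice of 2 weeks had 23.5, 26.5, 22.1 and 27.4 FPKM and the *Socs3* cKO mice 44.1, 62.3, 38.1 and 51.6. No mice overlapped, and the adjusted p by limma was 0.00439, but the log_2_(FC) of 0.96 (SE 0.17) was just under the fold that defines a DEG. It was called with median-of-ratios scaling (1.15), quantile normalization (1.01), the length and GC trend removed (1.37) and without *Socs3* cKO replicate 3 (1.07). Values in the 10-week wild type were 43.5, 35.6 and 24.7 FPKM, those in *Socs3* cKO 35.9, 47.3, 48.5 and 22.2. The range of the wild type lay inside that of *Socs3* cKO, with a log_2_(FC) of 0.12 (SE 0.3, 95% confidence interval -0.54 to 0.79, adjusted p = 0.76 by limma), and the sign was negative with both other scalings, at -0.16 and -0.07.

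As a share of the summed cyclooxygenase FPKM within a mouse, *Ptgs2* made up 1.07% ± 0.186 in wild type mice and 1.26% ± 0.605 in *Socs3* cKO at 2 weeks (SD, n = 4 each). At 10 weeks the share was 1.24% ± 0.573 in the wild type (SD, n = 3). In *Socs3* cKO it was 44.4%, 38.2%, 46.1% and 65.5%, a mean of 48.5% ± 11.8 (SD, n = 4). *Ptgs2* was above *Ptgs1* in 1 of these 4 mice, and the ratio of *Ptgs2* to *Ptgs1* FPKM was 0.618 to 1.9. The summed FPKM of both genes was 25.2 and 49.6 at 2 weeks and 35.1 and 73.9 at 10 weeks, in the wild type and *Socs3* cKO. These shares are given as a description, with no test.

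**Figure D2:**
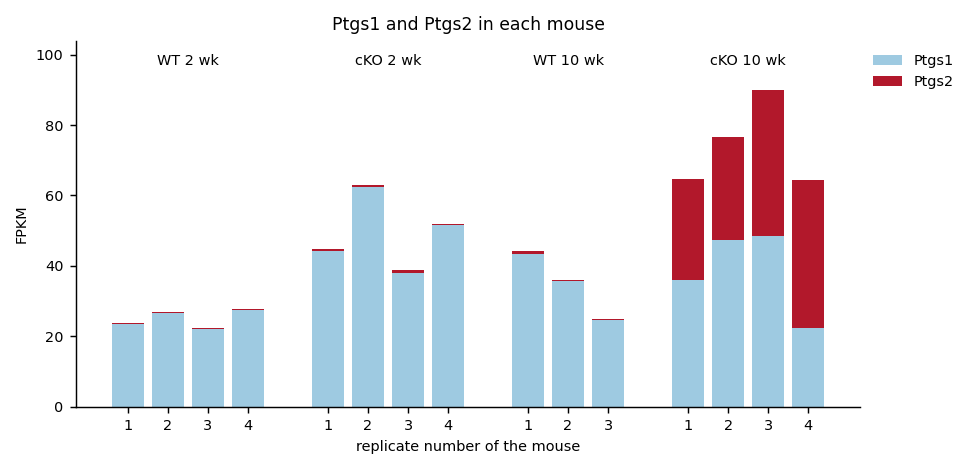
FPKM of *Ptgs1* (blue) and *Ptgs2* (red) stacked in 1 bar for each mouse, by group and replicate number. The red part is 38.2% to 65.5% of the bar in *Socs3* cKO at 10 weeks and at most 1.9% in the other mice.

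Other lists moved with *Ptgs2* at 10 weeks, where 14.9% of all genes tested were called. All 20 immediate-early genes examined, among them *Fos*, *Egr1* and *Nr4a1*, which respond to stimulation within minutes, were called up-regulated at 10 weeks. Their summed FPKM was 289 to 429 in wild type mice against 2100 to 3090 in *Socs3* cKO, and 18 of the 20 were called without wild type replicate 3. Among them *Fosl1* and *Nr4a3* were below 1 FPKM in each wild type mouse of 10 weeks. Both passed the filter only through *Socs3* cKO, so the count of 20 is not independent of their level there. At 2 weeks limma called 0 of the 18 tested, with 3 at an unadjusted p below 0.05 and 6 with a positive log_2_(FC). The *Socs3* cKO mice of that age differed widely among themselves. Their sums for this list reached from 247 up to 1210, while the wild type stayed within 600 to 639. *Fos*, for example, read 39.7, 204, 228 and 8.38 FPKM in replicates 1 to 4 of *Socs3* cKO, and its highest wild type value was 15.6. Of 7 macrophage markers, 6 were called up-regulated at 10 weeks, with a summed FPKM of 67.0 to 98.9 in wild type mice against 187 to 243 in *Socs3* cKO, and 3 were called without wild type replicate 3, with median-of-ratios scaling or with quantile normalization, and 2 with the length and GC trend removed. Of 5 Langerhans and dendritic cell markers 3 were called, and 1 or 2 without most single mice, with a summed FPKM of 621 to 751 and 1240 to 1900. Neutrophil markers were low, with a sum over 7 genes of 8.26 to 12.4 in wild type mice against 4.03 to 10.0 in *Socs3* cKO, and these ranges overlapped. Of 7 endothelial markers 3 were called up-regulated, or 1 with quantile normalization or the trend removed, with a summed FPKM of 25.0 to 28.3 in wild type mice against 44.8 to 65.5 in *Socs3* cKO. The part of these cell types and of the stimulation response in the *Ptgs2* and *Ptges* results was not tested.

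*Ptges* encodes the inducible prostaglandin E synthase, which works together with *Ptgs2*. It lies on chromosome 2 from 30744991 to 30785383. The wild type mice of 10 weeks had 14.6, 12.9 and 10.6 FPKM and the *Socs3* cKO mice 32.0, 38.2, 58.9 and 27.2. The groups did not overlap, with means of 12.7 ± 1.99 (SD, n = 3) and 39.1 ± 14.0 (SD, n = 4). *Ptges* was up-regulated with a log_2_(FC) of 1.56 (SE 0.26, adjusted p = 0.00221 by limma), or 1.25 above the median of all genes. Without wild type replicate 3 the log_2_(FC) was 1.44 and the call was lost (adjusted p = 0.0134 by limma). Values in the 2-week wild type were 11.9, 10.5, 9.51 and 10.8 FPKM, those in *Socs3* cKO 7.56, 20.4, 16.7 and 20.5. Replicate 1 of *Socs3* cKO was below the wild type and the other 3 were above it, and the log_2_(FC) was 0.5 (SE 0.31, adjusted p = 0.194 by limma). With the length and GC trend removed it was 1.3 and was called (adjusted p = 5.67e-05 by limma).

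*Ptgds*, the lipocalin-type prostaglandin D synthase, was 17.1, 20.0, 20.1 and 14.4 FPKM in wild type mice and 36.8, 27.0, 32.5 and 20.8 in *Socs3* cKO at 2 weeks. The groups did not overlap, but the log_2_(FC) of 0.69 (SE 0.21, adjusted p = 0.0259 by limma) was not called. At 10 weeks it was lower in both genotypes, at 5.18 to 11.1 and 7.87 to 12.1 FPKM, which overlapped (log_2_(FC) 0.4, adjusted p = 0.287 by limma). *Ptgis*, the prostacyclin synthase, had a log_2_(FC) of 0.31 at 2 weeks (SE 0.3, adjusted p = 0.394 by limma) and of -0.03 at 10 weeks (SE 0.18, 95% confidence interval -0.43 to 0.37). At 2 weeks it was 1.09 and called once the length and GC trend was removed (adjusted p = 0.000631 by limma). The members called at 2 weeks under that setting were *Ptges*, *Ptgis* and *Ptgs1*, with neither *Pla2g4a* nor *Hpgd*. Its FPKM at 10 weeks was 25.8 to 32.7 in wild type mice against 23.4 to 34.7 in *Socs3* cKO, so the range of the wild type lay inside that of *Socs3* cKO. *Ptgds* lies on chromosome 2 from 25322229 to 25325566 and *Ptgis* on the same chromosome from 167017305 to 167066104.

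*Hpgd* oxidises prostaglandin E2 to a form that its receptors bind poorly. It lies on chromosome 8 from 58773349 to 58799843. The wild type mice of 2 weeks had 11.5, 12.8, 13.5 and 12.6 FPKM and the *Socs3* cKO mice 43.7, 26.2, 30.7 and 33.8. The lowest *Socs3* cKO mouse was well above the highest wild type mouse, with means of 12.6 ± 0.813 and 33.6 ± 7.44 (SD, n = 4 each). *Hpgd* was up-regulated with a log_2_(FC) of 1.39 (SE 0.17, adjusted p = 0.000755 by limma), or 1.6 above the median of all genes. Once the trend with GC content and length was removed, the log_2_(FC) was 0.4 and the call was lost (adjusted p = 0.0203 by limma). The GC content of the longest coding transcript was 40.8% for *Hpgd*, 42.1% for *Pla2g4a* and 40.5% for *Ptgs2*, against 51.0% for *Ptgs1* and 53.1% for *Ptges*. At 10 weeks *Hpgd* was 18.9, 22.0 and 16.5 FPKM in wild type mice and 28.9, 27.9, 29.1 and 39.0 in *Socs3* cKO. These groups did not overlap either, and the log_2_(FC) of 0.7 (SE 0.18, adjusted p = 0.0152 by limma) was not called.

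*Ptges* and *Hpgd*, which make and remove prostaglandin E2, were also set against each other within each mouse. The ratio of *Ptges* to *Hpgd* FPKM was 0.855 ± 0.134 in wild type mice and 0.525 ± 0.255 in *Socs3* cKO at 2 weeks (SD, n = 4 each). At 10 weeks it was 0.669 ± 0.0928 in the wild type (SD, n = 3) and 1.3 ± 0.555 in *Socs3* cKO (SD, n = 4). Single mice of the genotypes overlapped at both ages. Among the younger mice, the highest *Socs3* cKO ratio was 0.778, above the lowest wild type ratio of 0.706. Replicate 1 of *Socs3* cKO had the lowest ratio of that age, 0.173. Among the older mice, the wild type ran from 0.59 to 0.771, and *Socs3* cKO ran from 0.697 to 2.02. No test was made of this ratio. It leaves out the other prostaglandin E synthase genes *Ptges2* and *Ptges3*, which had a log_2_(FC) of -0.38 and -0.52 at 10 weeks and were not called.

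Marker lists also moved at 2 weeks, beside *Pla2g4a*, *Hpgd* and *Ptgs1*, where 14.4% of all genes tested were called. Of 5 red cell and platelet markers tested 4 were called up-regulated in *Socs3* cKO, with a summed FPKM of 512 to 584 in wild type mice against 2760 to 7590 in *Socs3* cKO. All 7 hair shaft keratin genes tested were called down-regulated, with a summed FPKM of 601 to 981 and of 1.01 to 11.7. These genes passed the filter only through the wild type mice, so this count is not independent of their level there. Of 7 fibroblast markers 3 were called down-regulated and 1 up-regulated, with a summed FPKM of 12700 to 14900 in wild type mice against 5130 to 7110 in *Socs3* cKO, and without any 1 wild type mouse 2 and 0 were called. Of 5 skeletal muscle markers 2 were called up-regulated, or 1 to 3 without any 1 mouse, with sums of 453 to 681 and 975 to 1580. At 10 weeks the red cell and platelet sum was higher in the wild type, at 5030 to 7050 against 860 to 2300, and 3 of 6 genes were called lower in *Socs3* cKO, calls that were lost without wild type replicate 3. *Pf4*, a platelet and macrophage chemokine gene, was 47.6 to 58.9 FPKM in wild type mice against 52.9 to 161 in *Socs3* cKO at 2 weeks. The part of blood, hair, fibroblast and muscle content in the member results was not tested.

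**Figure D3:**
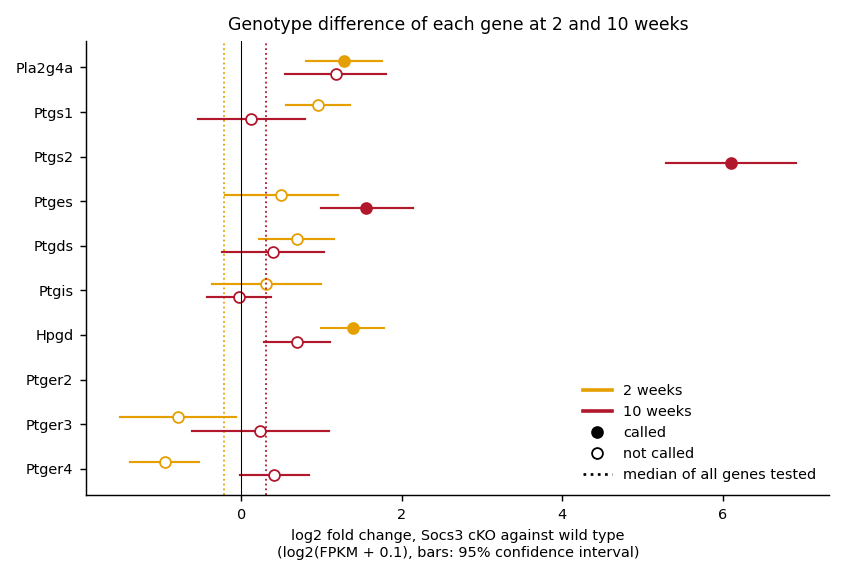
The log_2_(FC) of *Socs3* cKO against the wild type on the log_2_(FPKM + 0.1) scale for each gene tested, at 2 weeks (orange) and 10 weeks (red), with 95% confidence intervals. Filled points are DEGs, and dotted lines mark the median of all genes at -0.21 and 0.31. *Ptgs2* was tested at 10 weeks alone, where it is at 6.1, and *Ptger2* at neither age.

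The receptors of prostaglandin E2 couple to different signals. *Ptger2* (EP2) and *Ptger4* (EP4) raise cyclic AMP, while *Ptger3* (EP3) mostly lowers it. *Ptger4* lies on chromosome 15 from 5156661 to 5194187. Values in the 2-week wild type were 6.41, 7.59, 7.67 and 7.93 FPKM, those in *Socs3* cKO 2.77, 4.36, 3.84 and 4.29. The genotypes did not overlap, *Socs3* cKO being lower, and the log_2_(FC) was -0.95 (SE 0.18, adjusted p = 0.00575 by limma), just under the fold of a DEG. It was -0.52 with quantile normalization and -0.45 with the length and GC trend removed, and without *Socs3* cKO replicate 2 it was -1.02 and was called (adjusted p = 0.00342 by limma). At 10 weeks it was 3.89, 5.45 and 4.72 FPKM in wild type mice and 6.28, 5.72, 6.55 and 6.3 in *Socs3* cKO. Here the *Socs3* cKO mice were above the wild type with no overlap, and the log_2_(FC) of 0.41 (SE 0.19, adjusted p = 0.114 by limma) was not called. With quantile normalization this difference was -0.03. The annotated span of *Ttc33* shares 11676 bases with that of *Ptger4* on the other strand, introns included. Whether their exons overlap was not examined. The library kit does not mark strand, so reads from any shared exon could not be told apart. *Ttc33* itself had a log_2_(FC) of 0.9 at 2 weeks (adjusted p = 0.016 by limma) and of 0.03 at 10 weeks.

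*Ptger3* was 2.96 to 4.04 FPKM in wild type mice against 0.999 to 3.03 in *Socs3* cKO at 2 weeks, with an overlap and a log_2_(FC) of -0.79 (SE 0.32, adjusted p = 0.0665 by limma). At 10 weeks its ranges were 2.1 to 3.78 and 1.5 to 4.48 FPKM, with a log_2_(FC) of 0.24 (SE 0.38, adjusted p = 0.642 by limma) that was -0.03 with median-of-ratios scaling. *Ptger2* was under 1 FPKM in each mouse and was not in the fits. The wild type mice of 10 weeks had 0.255, 0.357 and 0.172 FPKM and the *Socs3* cKO mice 0.136, 0.0784, 0.118 and 0.142, with no overlap and an exact permutation p of 0.0571, the smallest possible. At 2 weeks its ranges were 0.181 to 0.401 and 0.168 to 0.284 FPKM, and the exact permutation test gave p = 0.6. *Ptger3* lies on chromosome 3 from 157229856 to 157307722 and *Ptger2* on chromosome 14 from 45607870 to 45623495.

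Whether the genotype difference itself changed with age was tested with an interaction term over all 4 groups, called at an adjusted p below 0.01. For *Ptgs2* the difference at 10 weeks exceeded that at 2 weeks by a log_2_ value of 5.26 (SE 0.5, adjusted p = 1.28e-05 by limma). For *Ptger4*, which was lower in *Socs3* cKO at 2 weeks and higher at 10 weeks, it exceeded it by 1.37 (SE 0.25, adjusted p = 0.00119 by limma). These were 2 of 9 members tested, where 25.6% of 13937 genes were called and the median of all genes was 0.55. *Ptgs2* entered this fit only through the 10-week *Socs3* cKO mice, and its values in the other groups were below 1 FPKM. The *Ptger4* interaction was 0.49 with quantile normalization and was then not called (adjusted p = 0.0631 by limma). *Ptges* (1.06, adjusted p = 0.0575), *Hpgd* (-0.68, adjusted p = 0.0367) and *Ptgs1* (-0.83, adjusted p = 0.0726) were not called by limma. With median-of-ratios scaling *Hpgd* (-1.15) and *Ptgs1* (-1.3) were called too, and with quantile normalization *Hpgd* (-1.17). With the length and GC trend removed the calls were *Ptgs2*, *Ptgs1* (-1.69) and *Ptgis* (-1.19, adjusted p = 0.0011 by limma), which was -0.34 without that step. The interaction of *Pla2g4a*, -0.1, had a 95% confidence interval of -0.89 to 0.69.

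Age alone was compared within each genotype, in contrasts that share their samples with the genotype comparisons. In the wild type *Ptgis* was up-regulated at 10 weeks, with a mean FPKM of 11.2 ± 1.78 at 2 weeks (SD, n = 4) and 29.3 ± 3.45 at 10 weeks (SD, n = 3; log_2_(FC) 1.38, SE 0.27, adjusted p = 0.0011 by limma). *Ptgds* was down-regulated in the wild type, from 17.9 ± 2.72 (SD, n = 4) to 7.36 ± 3.29 (SD, n = 3; log_2_(FC) -1.34, SE 0.27, adjusted p = 0.00116 by limma). That call was lost with either quantile normalization or median-of-ratios scaling. These were 2 of 9 members tested, where 25.5% of genes were called. In *Socs3* cKO *Ptgs2* was up-regulated (log_2_(FC) 5.73, SE 0.34, adjusted p = 3.32e-07 by limma), and *Ptgds* was down-regulated (log_2_(FC) -1.64, SE 0.25, adjusted p = 0.00078 by limma). These too were 2 of 9, where 3.54% of genes were called. *Ptgs2* again entered the fit only through the 10-week *Socs3* cKO mice. *Ptgis* and *Ptges* in *Socs3* cKO had a log_2_(FC) of 1.04 and 1.3 with no overlap between the ages, but an adjusted p by limma of 0.0187 and 0.0123. *Ptges* was called with a pseudocount of 1, either other scaling, the length and GC trend removed or without the 2-week *Socs3* cKO replicate 2, and *Ptgis* without replicate 3 of that group, which made the count 3. The ratio of *Ptgis* to *Ptgds* FPKM was 0.633 and 0.541 at 2 weeks and 4.48 and 3.16 at 10 weeks, in the wild type and *Socs3* cKO.

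The rest of the pathway was taken from lists of other phospholipases and synthases, other receptors, and breakdown and transport. Of 15 other synthesis genes tested at 2 weeks, 2 were up-regulated and 1 was down-regulated in *Socs3* cKO. Over all genes tested, 14.4% were called. *Pla2g5*, a secreted phospholipase A2, had a mean FPKM of 3.58 ± 0.314 in wild type mice and 18.8 ± 7.67 in *Socs3* cKO (both SD, n = 4), with a log_2_(FC) of 2.27 (SE 0.28, adjusted p = 0.000748 by limma). *Fam213b* (listed as 2810405K02Rik), a prostamide and prostaglandin F synthase, had 39.4 ± 1.69 and 113 ± 31.5 (SD, n = 4 each; log_2_(FC) 1.47, SE 0.2). *Pla2g4b*, another cytosolic phospholipase A2, fell from 6.77 ± 0.726 to 1.85 ± 0.896 (SD, n = 4 each; log_2_(FC) -1.94, SE 0.34). That call was lost without any 1 wild type mouse, without *Socs3* cKO replicate 3, with the replicate block and with the length and GC trend removed, where the log_2_(FC) was -0.82. At 10 weeks limma called 0 of 16 genes of this list, with 4 at an unadjusted p below 0.05, and 14.9% of all genes. *Pla2g5* and *Fam213b* were called under each alternative tried at 2 weeks.

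Among the other receptors, *Ptgfr*, the receptor of prostaglandin F2 alpha, was up-regulated at 2 weeks, at 4.83 ± 0.331 FPKM in wild type mice and 13.1 ± 5.16 in *Socs3* cKO (SD, n = 4 each; log_2_(FC) 1.35, SE 0.25). It was the 1 gene called of 5 tested, against 14.4% of all genes, and the call was lost without any 1 wild type mouse or with the replicate block. Only 1 of the 5 had a positive log_2_(FC), and their median was -1.88, against -0.21 for all genes. *Ptgfrn* (-1.88, adjusted p = 0.0131) and *Tbxa2r* (-2.01, adjusted p = 0.0334) were lower in *Socs3* cKO but not called by limma. Of the 5, 3 were called down-regulated with all 4 groups in one fit or without *Socs3* cKO replicate 1. At 10 weeks 2 of 5 were up-regulated, where 14.9% of all genes were called. *Ptger1* (EP1), a prostaglandin E2 receptor linked to calcium, was 0.241, 0.937 and 0.681 FPKM in wild type mice and 3.76, 3.08, 3.7 and 3.85 in *Socs3* cKO, with a log_2_(FC) of 2.5 (SE 0.37, adjusted p = 0.00134 by limma). It passed the 10-week filter only through the *Socs3* cKO mice, as each wild type mouse was below 1 FPKM. The 10-week count of this list is therefore not independent of that level. At 2 weeks *Ptger1* was 8.84, 9.79, 11.7 and 9.99 FPKM in wild type mice and 0.298, 3.45, 3.83 and 3.04 in *Socs3* cKO. These groups did not overlap, but replicate 1 of *Socs3* cKO was far below the other 3 and the log_2_(FC) of -2.31 (SE 0.68, adjusted p = 0.0245 by limma) was not called. *Ptgir*, the prostacyclin receptor, was up-regulated at 10 weeks, from 1.78 ± 0.473 (SD, n = 3) to 4.37 ± 0.592 (SD, n = 4; log_2_(FC) 1.27, SE 0.24). The call was lost without wild type replicate 1 or 3 or *Socs3* cKO replicate 1, 2 or 3, and with a pseudocount of 1 (0.96), quantile normalization (0.84) or the trend removed (0.88). The prostaglandin D2 receptors *Ptgdr* and *Ptgdr2* (listed as Gpr44) stayed below 1 FPKM in each mouse.

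Of 4 breakdown and transport genes, 1 was up-regulated at each age. Over all genes, 14.4% were called at 2 weeks and 14.9% at 10 weeks. *Ptgr1*, which reduces 15-keto prostaglandins made by *Hpgd*, went from 20.1 ± 1.06 to 47.7 ± 9.83 FPKM at 2 weeks (SD, n = 4 each; log_2_(FC) 1.21, SE 0.17), a call lost with the replicate block. *Ptgr2*, which catalyses a like step, went from 4.19 ± 1.93 (SD, n = 3) to 12.5 ± 1.32 (SD, n = 4) at 10 weeks (log_2_(FC) 1.64, SE 0.28), a call lost without wild type replicate 1.

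**Figure D4:**
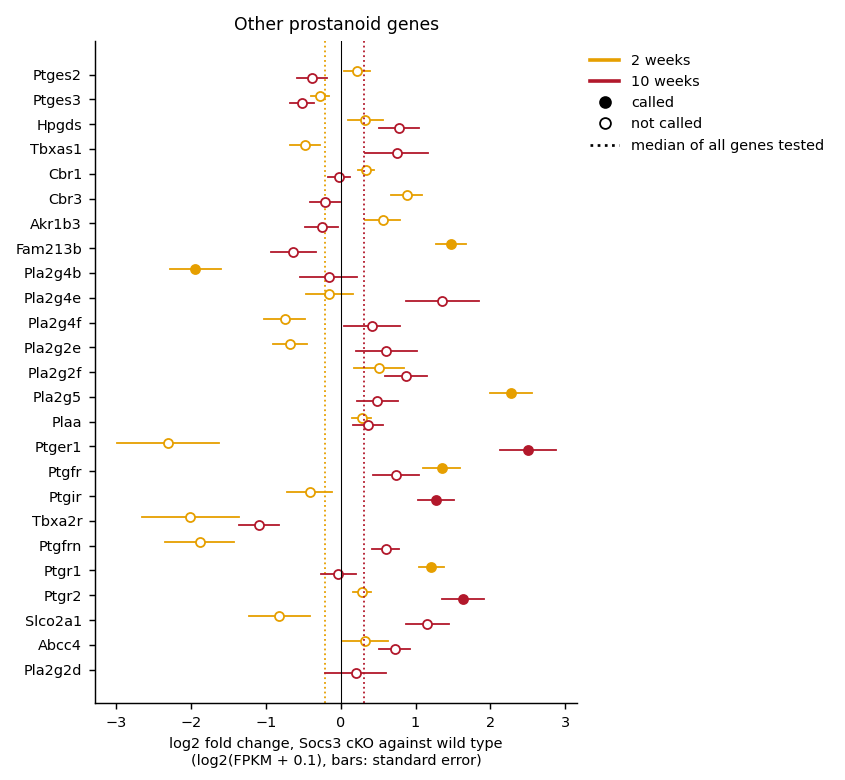
The log_2_(FC) of *Socs3* cKO against the wild type on the log_2_(FPKM + 0.1) scale with its standard error, for the other prostanoid genes tested at 2 weeks (orange) and 10 weeks (red). Filled points are DEGs, and dotted lines mark the median of all genes at each age, with *Ptger1* at -2.31 and 2.5.

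Arachidonic acid also feeds the lipoxygenases, which make leukotrienes and the lipids of the skin barrier. Of 13 genes tested at 2 weeks, 3 were up-regulated and 2 down-regulated, where 14.4% of all genes were called. *Ltc4s*, the leukotriene C4 synthase, went from 2.6 ± 0.429 to 11.1 ± 3.32 FPKM (SD, n = 4 each; log_2_(FC) 2.0), and *Cysltr1*, a receptor of its products, from 2.4 ± 0.277 to 9.98 ± 3.4 (SD, n = 4 each; log_2_(FC) 1.96). At 10 weeks *Ltc4s* ran the other way, at 18.7 ± 6.33 FPKM in wild type mice (SD, n = 3) and 8.75 ± 1.87 in *Socs3* cKO (SD, n = 4). That log_2_(FC) of -1.06 (adjusted p = 0.011 by limma) was not called. *Alox12b*, a barrier lipoxygenase, went from 14.0 ± 2.57 to 36.8 ± 10.0 (SD, n = 4 each; log_2_(FC) 1.35), a call lost without wild type replicate 1, 2 or 3 or *Socs3* cKO replicate 3 or 4. The lipoxygenases *Alox15* (log_2_(FC) -2.39) and *Alox8* (log_2_(FC) -2.4) were down-regulated, from 1.68 ± 0.22 to 0.246 ± 0.0992 FPKM and from 3.41 ± 0.696 to 0.699 ± 0.599 (SD, n = 4 each). Both passed the filter only through the wild type mice, so the count of 2 down-regulated genes is not independent of their level there. The *Alox8* call was lost without any 1 wild type mouse and without *Socs3* cKO replicate 3 or 4. With the replicate block the 2-week calls of *Ltc4s*, *Alox12b* and *Alox8* were lost. At 10 weeks 1 of 12 was up-regulated, where 14.9% of all genes were called. This was *Alox5*, the first enzyme of leukotriene synthesis, which went from 5.05 ± 1.22 (SD, n = 3) to 10.3 ± 1.07 (SD, n = 4; log_2_(FC) 1.04, SE 0.21). This call ended without the same 5 mice as that of *Ptgir*, and with a pseudocount of 1 (0.92), median-of-ratios scaling (0.76), quantile normalization (0.6) or the trend removed (0.68).

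Across the 15 mice, the genes whose log_2_ levels ran most like each member were found among 13937 genes by Pearson correlation, as a description of libraries that share their group structure. *Ptgs2* ran with the cytokine genes *Il6* (r = 0.985) and *Il1b* (r = 0.979). *Pla2g4a* ran with *Anxa1* (r = 0.978), the gene of annexin A1, and *Stxbp3a* (r = 0.977), and *Hpgd* with *Rabgap1l* (r = 0.979) and *Cab39l* (r = 0.977). For *Ptges* these genes were *Litaf* (r = 0.947) and *Bcl10* (r = 0.945), for *Ptger4* *Csf2ra* (r = 0.946) and *Scamp5* (r = 0.941). *Ptgis* ran with *Comp* (r = 0.951), a cartilage matrix gene, and *Cpe* (r = 0.927), and *Ptgds* with *Zfp189* (r = 0.951) and *Pcdh20* (r = 0.934). For *Ptgs1* the nearest were *Krt78* (r = 0.915) and *Paqr5* (r = 0.888). The receptors *Ptger3*, with *Adcy1* (r = 0.861) and *Wdr60* (r = 0.846), and *Ptger2*, with *Zfp82* (r = 0.836) and 2410075B13Rik (r = 0.827), had the lowest values.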

How the data were processed

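Ear RNA of 15 mice was read in 50-base single reads from TruSeq v2 libraries, a kit that does not mark strand. Alignment by the authors to mm9 used TopHat2 (version 2.1.0), and they deposited 1 FPKM value per gene and mouse, and the submitters' processing notes also name Cufflinks. The study tested read counts, which were not used here, and it states more wild type mice than the 7 analysed here. Depth per library is unknown. Estimates from the spacing of low values were lowest in the wild type libraries of 10 weeks with the fewest genes at 0, and were not used.

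Groups and replicate numbers came from the sample labels. Values were analysed as log_2_(FPKM + 0.1) with limma 3.58.1 (R 4.3.3), its prior variance following a trend, on the 2 groups of each age, and on all 4 groups for the interaction and age contrasts, with Benjamini-Hochberg adjustment over all genes tested. A pseudocount understates the change of low genes. The step was tested on simulated data. Exact permutation tests used scipy 1.17.1 in Python 3.11.15 (numpy 2.4.6, pandas 2.3.3, matplotlib 3.10.9). Positions and promoter windows came from the mm9 genome with a GENCODE annotation. Replicates of a group were checked for copies, and at most 1 nonzero value was identical in a pair.

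All 10 members were named. Of the other pathway lists, genes called at 2 or 10 weeks were named, up to 5 a list, and the 2 most like each member. The members and lists were chosen with earlier results of these data known. Alternatives were pseudocounts of 1 and 0.01, no filter, a stricter filter, median-of-ratios scaling, quantile normalization, a replicate block, a constant prior variance, all 4 groups in one fit and leaving out each mouse. One more, chosen after seeing the data, removed each sample's trend with GC content and gene length.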

Additional observations from a re-analysis of the deposited data

Results flagged for a closer look

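Of 30 sets of 4 mice tested for a mouse far from the others, 3 had one, and chance marks about 1 in 20 such sets. *Pla2g4a* was 9.64 FPKM in wild type replicate 4 at 2 weeks, against 8.71 to 8.8 in the other 3. *Ptgs2* was 0.262 FPKM in *Socs3* cKO replicate 4 at 2 weeks, level with the wild type, against 0.674 to 0.739 in the other 3. *Hpgd* was 39.0 FPKM in *Socs3* cKO replicate 4 at 10 weeks, against 27.9 to 29.1 in the other 3.

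The genotype difference of 2 members changed between the ages by the interaction test. That of *Ptgs2* was larger by a log_2_ value of 5.26 at 10 weeks (SE 0.5, adjusted p = 1.28e-05 by limma), with 4 of 4 *Socs3* cKO mice above each wild type mouse at 10 weeks. That of *Ptger4* went from -0.95 to 0.41, a change of 1.37 (SE 0.25, adjusted p = 0.00119 by limma), with 4 of 4 *Socs3* cKO mice below the wild type at 2 weeks and 4 of 4 above it at 10 weeks. The *Ptger4* change was 0.35 (adjusted p = 0.161 by limma) with the length and GC trend removed.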

How the results depend on the processing

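For the members, 563 of 609 recomputed values kept their direction and their side of the threshold, 12 lost and 15 gained a call, and 19 turned in sign. The calls of *Ptgs2* at 10 weeks, in the interaction and with age in *Socs3* cKO held under each alternative, at a log_2_(FC) of 4.63 to 6.53 at 10 weeks. The count of 2 members called at 2 weeks was 1 with the replicate block (*Hpgd*) and 1 to 3 without any 1 mouse, *Ptger4* (-1.02) being added without *Socs3* cKO replicate 2 and *Ptgs1* (1.07) without replicate 3. With the length and GC trend removed it was 3, with neither *Pla2g4a* nor *Hpgd*. The count of 2 at 10 weeks was 1 to 2 without any 1 mouse, and 1 (*Ptgs2*) without wild type replicate 3. The interaction count of 2 was 4 with median-of-ratios scaling. The age count of 2 in the wild type became 1 with median-of-ratios scaling, and 4 with the length and GC trend removed. That in *Socs3* cKO was 2 or 3. Differences that turned in sign were not called in any fit where they turned. At 10 weeks they were *Ptgs1* (-0.16 with median-of-ratios scaling, -0.07 with quantile normalization, -0.32 with the length and GC trend removed, -0.1 to 0.37 without any 1 mouse), *Ptgds* (-0.01 with quantile normalization), *Ptgis* (-0.12 to 0.07 without any 1 mouse), *Ptger3* (-0.03 with median-of-ratios scaling, -0.18 with quantile normalization, -0.37 with the trend removed) and *Ptger4* (-0.03 with quantile normalization, -0.1 with the trend removed). In the interaction they were *Pla2g4a* (-0.48 to 0.16) and *Ptgds* (-0.5 to 0.05) without any 1 mouse, and *Ptges* (-0.23) and *Hpgd* (0.02) with the trend removed. *Pla2g4a* at 10 weeks was called with a pseudocount of 1, the stricter filter or all 4 groups in one fit. The cause of these changes was not tested.

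Of 1957 genes called at 10 weeks 1638 were higher in *Socs3* cKO and 319 lower, against 1041 and 645 with median-of-ratios scaling and 898 and 739 with quantile normalization. The 1951 genes called at 2 weeks were 751 with the replicate block, 3300 with all 4 groups in one fit and 859 to 3348 without any 1 mouse. At 10 weeks the count was 745 without wild type replicate 3, and 1281 with the trend removed. Mice with the same replicate number did not deviate together, with correlations of -0.06 to 0.06 at 2 weeks and -0.2 to 0.04 at 10 weeks. With so few mice this cannot exclude that the numbers pair them. With that block *Pla2g4a* at 2 weeks had an adjusted p of 0.012 by limma. Depth is unknown, and the values of *Ptger2* lay too low for each fit. Those of *Ptgs2* at 2 weeks lay too low for the 2-week fit, though the interaction and age contrasts used them.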
